A study of Mus musculus with 15 samples.

Results

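The interferon receptor and JAK-STAT signalling genes were examined in bone marrow-derived macrophages (BMDMs) with and without the histone variant H3.3. The set held 9 genes chosen by name out of 21938 protein-coding genes of the GENCODE M21 annotation: the receptor chains Ifnar1 and Ifnar2, the kinases Jak1 and Tyk2, the transcription factors Stat2, Irf9, Irf7 and Irf1, and the negative regulator Usp18. Regions enriched by CUT&RUN, in which an antibody directs a nuclease to a chromatin protein so that the DNA there is released and sequenced, were laid over each gene body and the 5 kb upstream of it, together called the window. The series held 15 samples, of which 10 had region lists, 2 biological replicates for H3.3-HA and 2 per genotype for H3K27ac and for H3K36me3. The 5 IgG samples were used by the authors as background for region calling and were not analysed here as libraries.

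WT cells carried floxed H3f3a and H3f3b, the pair of genes encoding H3.3, without Cre. The cKO cells carried the same floxed alleles together with LysM-Cre on both alleles, which is expressed in myeloid cells. H3.3-HA cells carried an HA tag at H3f3b and were not deleted, so H3.3 was not mapped in cKO cells. All mice were on a C57BL/6 background, and bone marrow was cultured for 6 to 8 days in medium conditioned by L929 cells, a source of M-CSF, with no interferon added. Per the study, the completeness of deletion of H3f3b varied, so a cKO culture can hold cells that keep some H3.3.

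Type I interferon binds the receptor formed by IFNAR1 and IFNAR2, and the kinases TYK2 and JAK1 on its tails then phosphorylate STAT proteins. STAT2 and IRF9 form part of the ISGF3 complex, which binds the interferon-stimulated response element (ISRE) of target genes. Several components are themselves targets, here called feedback-induced (Stat2, Irf9, Irf7, Irf1 and Usp18), while Ifnar1, Ifnar2, Jak1 and Tyk2 are transcribed at a steady level in most cells, here called constitutive. H3K27ac marks active promoters and enhancers, and H3K36me3 is laid down along the bodies of transcribed genes.

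The libraries held between 5365319 and 29988098 tags and the lists between 35018 and 61764 regions. Among the 10 macrophage markers examined, 10 carried an H3.3-HA region in both replicates, and 9 carried regions in both replicates of each genotype for each mark. Among markers of T cells, B cells, neutrophils, dendritic cells, erythroid cells and fibroblasts, none carried an H3K36me3 region in both libraries of a genotype. H3K27ac regions were found in both libraries at 1 of 4 B cell, 1 of 5 neutrophil and 1 of 4 dendritic cell markers in WT, and at 1 of 5 T cell, 1 B cell, 1 neutrophil and 2 dendritic cell markers in cKO. H3.3-HA regions lay in both replicates at 2 T cell, 2 B cell, 2 neutrophil and 3 dendritic cell markers, and fibroblast markers held no region in any list. Their part in the results was not tested. The region lists held no check of the deletion at H3f3a. Per the study, its floxed part is exon 2, which, like exon 2 of H3f3b, was without a region in all 10 lists. At H3f3b the floxed part spans exons 1 to 4. H3K27ac regions covered 23.9% and 24.1% of the H3f3b body in WT against 55.4% and 73.6% in cKO. For H3K36me3 the shares were 10.7% and 14.2% in WT against 39.6% and 33.6% in cKO. The cKO lists thus held regions in the body of a gene due for deletion. How much H3f3b these cKO cells kept was not tested. Genotype of these libraries therefore rests here on the sample labels. The study itself reported the deletion in cKO BMDMs by genomic PCR. It also reported depletion of H3.3 RNA by qRT-PCR and RNA-seq, and of the protein by western blot. The first cKO H3K36me3 library stood apart, with 19.3% of its tags in regions against 46.5% to 50.2% in the other 3 libraries of the mark. For H3K27ac, 24.1% and 21.5% of tags lay in regions in WT against 11.8% and 17.8% in cKO. The WT lists of this mark held 61764 and 54630 regions and the cKO lists 35018 and 41444. Lower H3K27ac coverage in cKO is to be read with these smaller lists, and counts with equal numbers of regions are given at the end. The regions were called against a different IgG control in each genotype, so a genotype difference includes any difference between controls.

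RefSeq promoter sequences were matched for 8 of the 9 members, all but Usp18. They were searched on both strands, from 250 bases before to 50 bases after the RefSeq start, for ISRE cores, here GAAA repeated after any 2 or any 3 bases, and for the gamma-activated sequence TTCNNNGAA, the element bound by STAT dimers. Among 32851 promoters of 300 bases, 3.44%, 2.75% and 8.30% held the core with 2 bases, the core with 3 bases and TTCNNNGAA. Stat2 was the member with an ISRE core, and it lies on the reverse strand 222 bases before the start. Matches to TTCNNNGAA were found 90 bases before the start of Irf1, 214 bases before that of Ifnar2 and 5 bases before that of Ifnar1, where the match runs across the start. No match was found in the promoters of Irf9, Irf7, Jak1 and Tyk2, which says only that these letters are not in those windows. The stretches lying before both the RefSeq and the GENCODE start are given for Stat2 and Ifnar1, whose starts lay within H3K27ac regions of cKO libraries and of no WT library, for Irf7, whose start region was wider in cKO, and for Irf1, whose start carried no H3K27ac region. They are from RefSeq on GRCm38.p6, 5′ to 3′ on the strand of the gene, and capitals mark motif matches that lie wholly inside a stretch, which the Ifnar1 match does not.
Stat2, chr10:128270248-128270497, plus strand: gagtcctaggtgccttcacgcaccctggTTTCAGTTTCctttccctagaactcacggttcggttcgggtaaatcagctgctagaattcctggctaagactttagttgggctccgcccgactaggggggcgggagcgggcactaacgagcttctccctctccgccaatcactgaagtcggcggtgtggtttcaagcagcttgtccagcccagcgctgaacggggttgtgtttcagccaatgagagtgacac
Irf1, chr11:53769764-53770013, plus strand: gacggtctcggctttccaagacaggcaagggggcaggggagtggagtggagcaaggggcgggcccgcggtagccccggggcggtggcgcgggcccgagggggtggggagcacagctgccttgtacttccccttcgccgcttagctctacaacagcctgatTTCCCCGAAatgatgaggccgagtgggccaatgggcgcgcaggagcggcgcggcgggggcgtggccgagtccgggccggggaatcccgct
Irf7, chr7:141266482-141266674, minus strand: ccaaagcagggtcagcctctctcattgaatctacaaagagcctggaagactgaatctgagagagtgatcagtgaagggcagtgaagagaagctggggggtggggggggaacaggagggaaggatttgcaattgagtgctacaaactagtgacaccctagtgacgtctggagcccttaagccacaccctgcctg
Ifnar1, chr16:91484965-91485214, plus strand: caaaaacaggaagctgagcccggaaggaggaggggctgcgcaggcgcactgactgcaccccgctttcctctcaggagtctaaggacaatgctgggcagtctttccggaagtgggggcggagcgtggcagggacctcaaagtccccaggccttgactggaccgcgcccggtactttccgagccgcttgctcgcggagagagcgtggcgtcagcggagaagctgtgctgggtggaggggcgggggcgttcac
H3K27ac regions covered 0% and 38.0% of the Stat2 stretch in WT and 100% of it in both cKO libraries. They covered 0% of the Ifnar1 stretch in both WT and 100% in both cKO libraries. The Irf7 stretch was covered to 46.6% and 0% in WT and to 57.5% and 100% in cKO, so the genotypes did not overlap there. The Irf1 stretch held no H3K27ac region in any of the 4 libraries.

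To ask whether the mark at these genes differed between genotypes, the share of each window covered by regions was compared. A gene was called higher when both cKO libraries lay above both WT libraries, and lower in the opposite case. An exact two-sided permutation test of 2 against 2 libraries cannot give a p below 0.333, so no gene could reach 0.05, and each count is read against the same count over all genes whose window held a region in 2 or more of the mark's 4 libraries. For H3K27ac, 5 of the 9 members were higher in cKO (Stat2, Irf7, Usp18, Ifnar1 and Tyk2), against 19.0% of 11696 genes. The 2 lower members were Jak1 and Irf1, against 41.7% of genes, and Irf9 and Ifnar2 overlapped. The median difference, cKO minus WT, was 5.25 percentage points over the members and -1.32 over all genes tested. In these bulk cultures a mark on fewer cells and a weaker mark on every cell cannot be told apart.

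**Figure D1:**
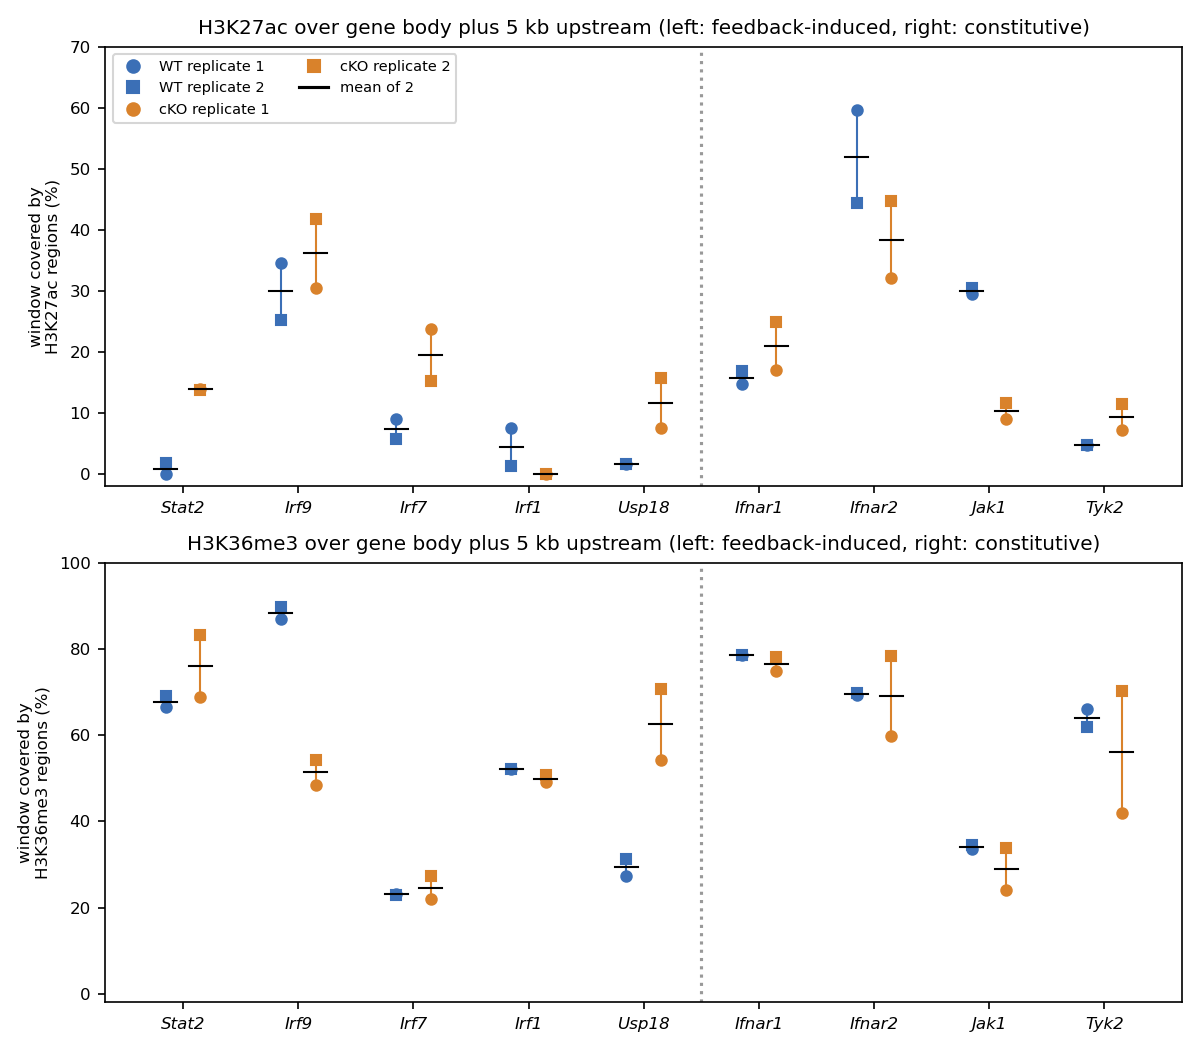
Share of each member's window (gene body plus 5 kb upstream) covered by H3K27ac regions (top) and H3K36me3 regions (bottom), in percent. Circles and squares are replicates 1 and 2, blue is WT, orange is cKO, vertical lines join the replicates and black bars are their means. Stat2, Irf7 and Usp18 lie higher in both cKO libraries for H3K27ac, Jak1 lies lower, and Usp18 shows the widest upward gap for H3K36me3.

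Stat2 (chr10:128270559-128292849, plus strand) encodes the STAT that joins IRF9 in ISGF3. H3K27ac regions covered 0% and 1.84% of its window in WT and 14.0% and 13.9% in cKO. Both cKO libraries lay above both WT libraries, and the cKO replicates differed from each other by less than the WT replicates did. The single WT region was 501 bp wide and ended 217 bp before the start. In cKO a region of 2811 bp and one of 2780 bp ran from 1017 and 866 bp upstream to 1793 and 1913 bp downstream of the start. The printed ISRE core lies inside both, and also inside the WT replicate 2 region. The window also holds the gene Apof, and the WT region and both cKO start regions reach over its 3′ end.

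Usp18 (chr6:121245906-121270917, plus strand) encodes the protease that removes ISG15 from proteins and blocks signalling at IFNAR2. H3K27ac regions covered 1.67% of its window in each WT library and 7.57% and 15.8% in the cKO libraries. The groups did not overlap. Each WT library held 1 region of 501 bp upstream of the start. The cKO regions at the same place were 2271 and 4020 bp wide and reached 1049 and 2119 bp into the gene.

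Irf7 (chr7:141262706-141266481, minus strand) encodes the factor that drives most interferon alpha genes. H3K27ac regions covered 9.06% and 5.71% of its window in WT and 23.7% and 15.2% in cKO. The groups did not overlap, and all 4 libraries carried a region over the stretch from 55 to 555 bp into the gene. The start regions were 795 and 501 bp wide in WT and 1177 and 1336 bp in cKO. The remaining cKO region was in replicate 1 alone, 2284 to 3187 bp upstream, where the window also holds part of Cdhr5.

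Irf9 (chr14:55603571-55610030, plus strand) encodes the DNA-binding partner of STAT2. Its H3K27ac coverage was 34.6% and 25.3% in WT and 30.6% and 41.8% in cKO, so the genotypes overlapped. Its start lay within a region in all 4 libraries. Over the gene body alone coverage was 36.6% and 35.0% in WT and 38.5% and 41.1% in cKO, which did not overlap.

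Irf1 (chr11:53770014-53778374, plus strand) encodes a factor induced early by interferon gamma and other stimuli. H3K27ac regions covered 7.50% and 1.29% of its window in WT and 0% in both cKO libraries. The WT regions were 501 bp wide each and none was shared by the WT replicates. Over the gene body alone WT replicate 2 was also at 0%, so the genotypes overlapped there.

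Among the constitutive members, Jak1 (chr4:101152367-101265282, minus strand) encodes the kinase that pairs with IFNAR2 and with many cytokine receptors. H3K27ac regions covered 29.6% and 30.5% of its window in WT and 8.97% and 11.7% in cKO. The cKO libraries lay below the WT libraries by a gap far wider than either pair's spread. With the body cut into 3 equal parts, the part next to the start was covered to 37.0% and 35.4% in WT and to 4.26% and 11.3% in cKO, and the part next to the gene end to 40.3% and 37.9% in WT and to 21.8% and 22.4% in cKO. At the start itself the order was opposite or even: 1 kb on both sides was covered to 51.6% and 43.5% in WT and to 61.0% and 50.1% in cKO.

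Ifnar2 (chr16:91372783-91405589, plus strand) encodes the high-affinity receptor chain. Its H3K27ac coverage was 59.6% and 44.5% in WT and 32.1% and 44.8% in cKO, and the genotypes overlapped by the narrow margin between WT replicate 2 and cKO replicate 2. Its start lay within a region in all 4 libraries. The middle of 3 equal parts of the body was covered to 43.2% and 38.3% in WT and to 5.72% and 25.7% in cKO, and the part next to the gene end to 68.5% and 45.0% in WT and to 61.9% and 65.8% in cKO, which overlapped.

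Ifnar1 (chr16:91485238-91507441, plus strand) encodes the chain that binds TYK2. H3K27ac regions covered 14.7% and 16.9% of its window in WT and 17.0% and 25.0% in cKO, so the nearest libraries of the genotypes were almost level. The place of the regions differed more than their sum. Within 1 kb on both sides of the start coverage was 0% in both WT libraries and 93.9% and 100% in cKO. In the part next to the gene end it was 23.9% and 8.51% in WT and 0% and 6.77% in cKO. Over the gene body alone the genotypes overlapped, at 18.0% and 20.6% in WT and 16.9% and 22.6% in cKO.

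Tyk2 (chr9:21104068-21131243, minus strand) encodes the kinase bound to IFNAR1. H3K27ac regions covered 4.71% and 4.75% of its window in WT and 7.19% and 11.5% in cKO. The sums did not overlap, but the regions of the cKO replicates did not coincide anywhere, with 0% of the window shared by both, against 1.84% for WT. Its start was covered in WT replicate 2 and cKO replicate 1. Over the gene body alone, covered to 5.58% and 2.83% in WT and to 5.38% and 10.9% in cKO, the genotypes overlapped. Of the 5 kb upstream, 3022 bp belong to the gene Cdc37. The upstream regions of WT replicate 2 and cKO replicate 2 lie there, and those of cKO replicate 1 do not.

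**Figure D2:**
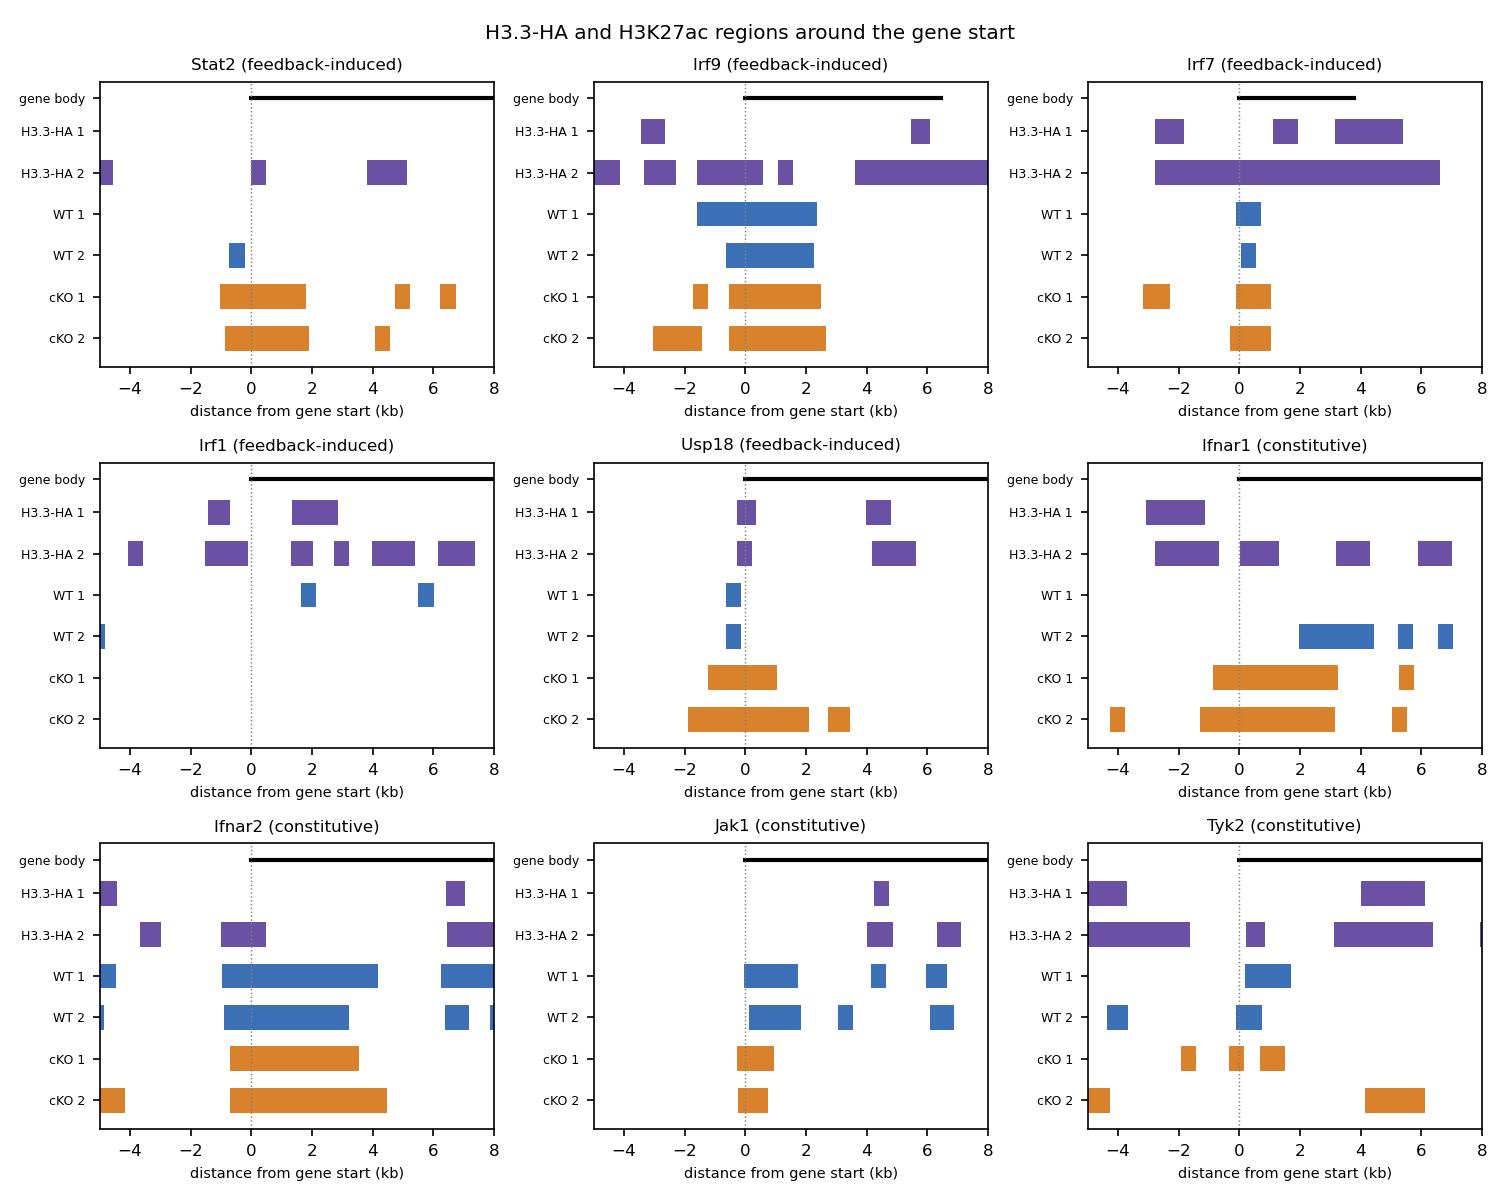
Regions of H3.3-HA (purple), WT H3K27ac (blue) and cKO H3K27ac (orange) from 5 kb upstream to 8 kb downstream of the gene start, in kb along the direction of transcription. Each row is 1 library and the black bar is the gene body. Wide cKO regions span the starts of Stat2, Usp18 and Ifnar1, where WT regions are narrow or lie elsewhere.

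Start sites were then compared alone, since wider cKO regions at starts were seen at several members. Stat2, Usp18 and Ifnar1 had their start inside a region in both cKO and neither WT library, 3 of the 8 members with a covered start in 2 or more H3K27ac libraries. The same held for 42.2% of the 6150 genes that met this condition, while 4.26% showed the opposite, so the members' share is near that of all genes. Over all genes, 3190 and 3188 starts were covered in WT and 5477 and 7363 in cKO. Within 1 kb on both sides of the start, 4 of the 8 members tested were higher in cKO (Stat2, Usp18, Irf7 and Ifnar1), against 45.5% of 8682 genes, and Ifnar2, Irf9 and Tyk2 were lower, against 14.4%. The wider start regions in cKO were thus a feature of these lists as a whole. The IgG controls differed with genotype, so their part in it cannot be told apart from that of the deletion.

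Merged regions were also called gained, when both cKO and neither WT library overlapped them, or lost in the opposite case. No member had a gained H3K27ac region, against 18.8% of genes, and the wide cKO start regions of Stat2, Usp18, Irf7 and Ifnar1 each overlapped a region of at least 1 WT library. The count was 3 to 6 members when any 1 library was left out, where the share of all genes was 28.3% to 45.4%. Lost H3K27ac regions were found at 3 members, against 40.6% of genes, and all 3 were constitutive. Jak1 had 5 of them, each 931 to 2382 bp wide and 5970 to 92514 bp into the gene. Ifnar1 had 2 and Ifnar2 had 1. A lost region needs a region in both WT libraries. The WT H3K27ac lists held 22 and 24 regions at Jak1, 8 and 9 at Ifnar2, and 6 and 5 at Ifnar1. At Tyk2 they held 1 and 2, and at each feedback-induced member 0 to 2, so little could be called lost there.

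For H3K36me3, 1 of the 9 members was higher in cKO (Usp18), against 8.40% of 11185 genes. The 3 lower members were Irf9, Irf1 and Ifnar1, against 40.4% of genes, and the other 5 overlapped. The median difference was -2.01 percentage points over the members and -5.87 over all genes tested. These counts turned on the cKO library that stood apart. Without cKO replicate 1, 5 members were higher, against 40.8% of genes, and without cKO replicate 2, 7 were lower, against 86.1%.

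Usp18 had the largest positive H3K36me3 difference of the members. Regions covered 27.4% and 31.2% of its window in WT and 54.3% and 70.8% in cKO. The means were 29.3% ± 2.69 and 62.5% ± 11.7 (SD, n = 2 each), and the difference of 33.2 percentage points exceeded that of 99.7% of genes tested. The lower-yield cKO library alone lay above both WT libraries. In WT the mark was split into 6 regions per library that began 7470 and 7604 bp into the gene. In cKO it ran in longer regions, the widest 7991 and 19704 bp, and the middle of 3 equal parts of the body was covered to 42.8% and 43.6% in WT and to 93.0% and 100% in cKO. The single gained H3K36me3 region at a member also lay in Usp18, at chr6:121249438-121250798, 3532 to 4892 bp from the start. Such regions were found at 9.01% of genes.

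Irf9 had the largest negative difference, with 86.9% and 89.8% of the window covered in WT and 48.5% and 54.4% in cKO. The difference lay in the 5 kb upstream, covered to 100% in both WT libraries and to 8.44% and 23.9% in cKO. That stretch is the 3′ part of the neighbouring gene Rnf31, which reaches past the start of Irf9 and is transcribed in the same direction. Over the body of Irf9 coverage was 76.8% and 82.0% in WT and 79.6% and 78.0% in cKO, and the genotypes overlapped.

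Stat2 was covered by H3K36me3 to 66.6% and 69.0% in WT and to 68.9% and 83.3% in cKO. WT replicate 2 lay just above cKO replicate 1, so the genotypes overlapped. In cKO replicate 2 a single region of 23058 bp ran over the whole gene, from 435 bp before the start.

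Irf7 was covered to 23.3% and 22.8% in WT and to 22.0% and 27.3% in cKO, and the genotypes overlapped. Its H3K36me3 regions continued past the gene end toward Phrf1, which meets it there from the opposite strand. Irf1 was covered to 52.2% in both WT libraries and to 49.2% and 50.7% in cKO, which is lower by the rule and small in size.

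Of the constitutive members, Ifnar1 alone was called for H3K36me3 over the window. It was covered to 78.6% in both WT libraries and to 74.9% and 78.3% in cKO, with the parts of its body beyond the one next to the start at 100% in all 4 libraries. Ifnar2 was covered to 69.4% and 69.9% in WT and to 59.7% and 78.5% in cKO, and Tyk2 to 66.2% and 62.0% in WT and to 41.9% and 70.4% in cKO. In both genes cKO replicate 1 was the lowest and cKO replicate 2 the highest of the 4 libraries. Parts of both bodies did not overlap between genotypes. In Tyk2 the part next to the start was covered to 43.5% and 51.9% in WT and to 66.7% and 74.7% in cKO, and the part next to the gene end to 91.5% and 91.4% in WT and to 19.2% and 76.2% in cKO. In Ifnar2 the part next to the start was covered to 72.3% and 81.4% in WT and to 21.9% and 71.3% in cKO. The part next to its gene end was covered to 67.8% and 60.1% in WT and to 85.1% and 100% in cKO. There the window also holds part of Gm21970. The share of all genes with such parts was not computed. Jak1 was covered to 33.7% and 34.7% in WT and to 24.1% and 33.9% in cKO, and it held the single lost H3K36me3 region at a member, 909 bp wide, against 25.2% of genes with such a region.

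**Figure D3:**
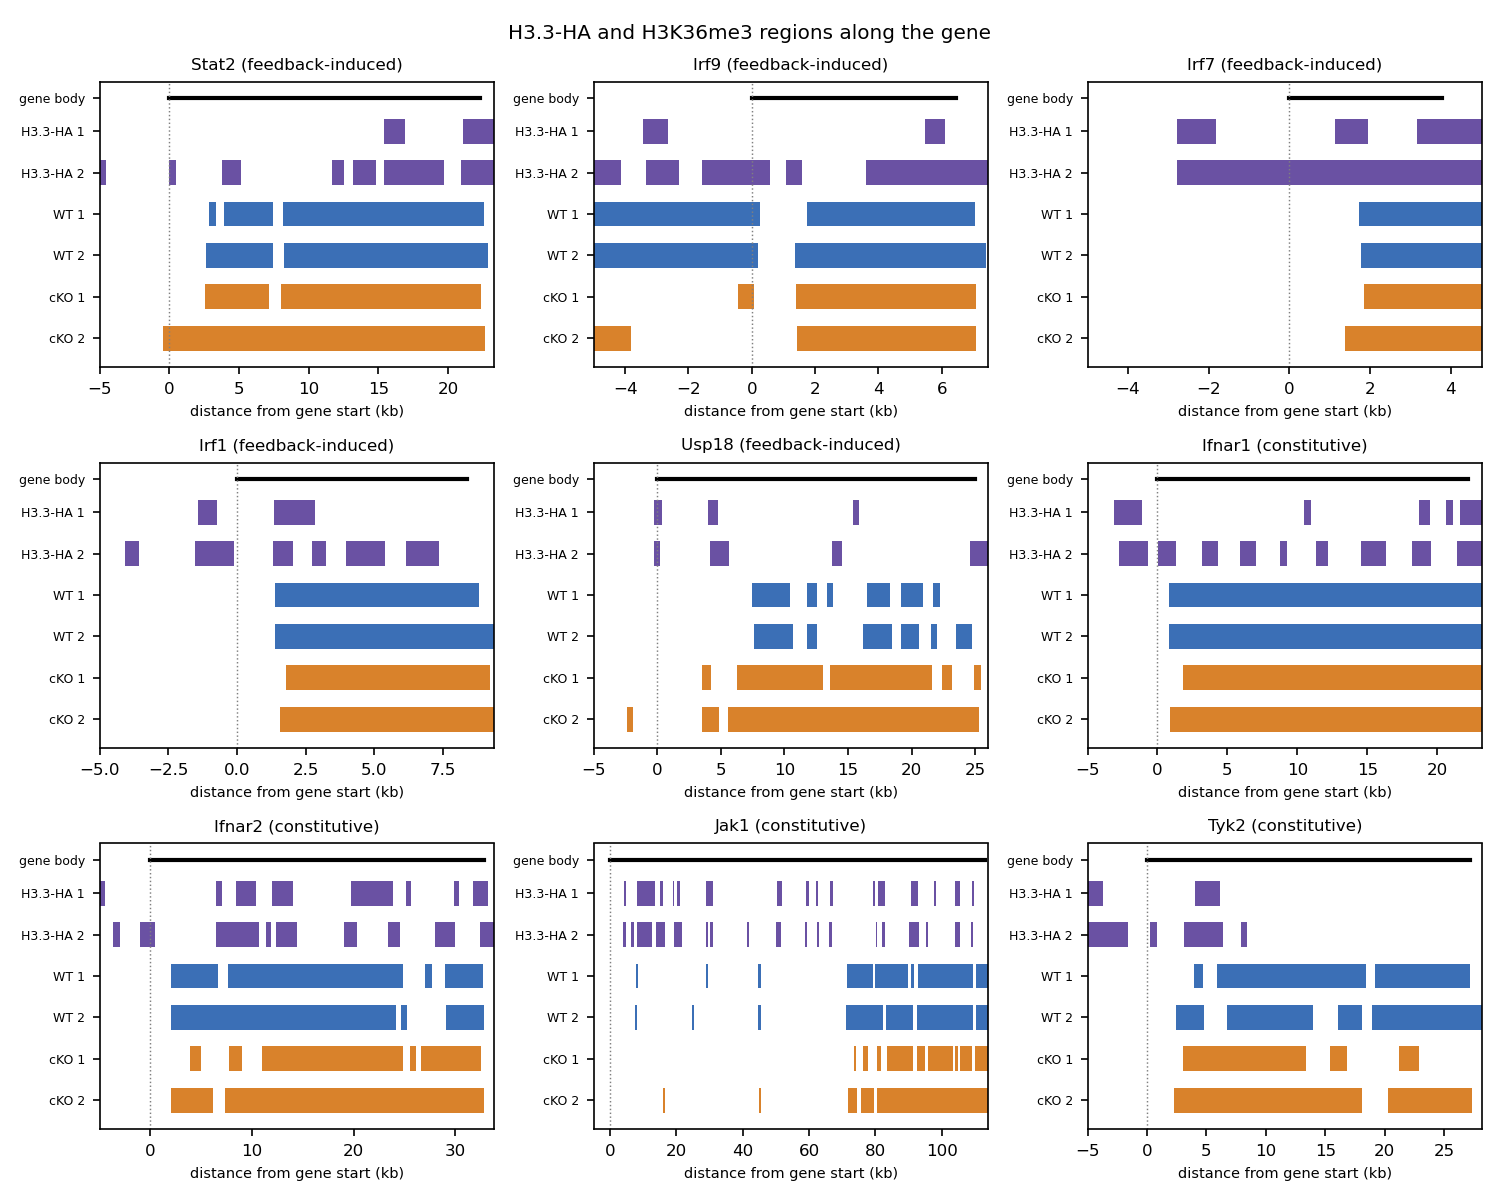
Regions of H3.3-HA (purple), WT H3K36me3 (blue) and cKO H3K36me3 (orange) from 5 kb upstream of the start to 1 kb past the gene end, in kb along the direction of transcription, with the black bar as the gene body. The Usp18 regions are longer in cKO, and the WT regions upstream of Irf9, over the end of Rnf31, are mostly absent in cKO while those over the Irf9 body remain.

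Feedback-induced and constitutive members were compared by their mean coverage in each library, as a description with no test because both sets were chosen with earlier results known. For H3K27ac the feedback-induced mean was 10.6% and 7.17% in WT and 15.2% and 17.3% in cKO. The constitutive mean was 27.2% and 24.1% in WT and 16.3% and 23.2% in cKO. The feedback-induced mean minus the constitutive mean was thus -16.6 and -17.0 percentage points in WT and -1.16 and -5.89 points in cKO, a difference of differences of 13.3 points. By the call rule, 3 of 5 feedback-induced members were higher and 1 lower, and 2 of 4 constitutive members were higher and 1 lower. The constitutive mean rests on unlike members, with cKO minus WT at -19.7 points for Jak1, -13.6 for Ifnar2, 5.25 for Ifnar1 and 4.63 for Tyk2. Starting coverage was also unlike. In WT, Stat2, Usp18, Irf1 and Irf7 were covered to at most 9.06%, so they had little to lose, and so had Tyk2. Ifnar2 was covered to 59.6% and 44.5%, Jak1 to 29.6% and 30.5%, and Irf9 to 34.6% and 25.3%. The part of starting coverage in this contrast was not tested. For H3K36me3 the feedback-induced mean minus the constitutive mean was -10.7 and -8.23 points in WT and -1.55 and -7.96 points in cKO. This gave a difference of differences of 4.69 points. Without the 5 kb upstream of every member, which takes out most of the overlap with Rnf31, the latter was 14.0 points. Within 1 kb on both sides of the start it was -0.97. It was 1.49 points without cKO replicate 1 and 7.90 without cKO replicate 2.

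**Figure D4:**
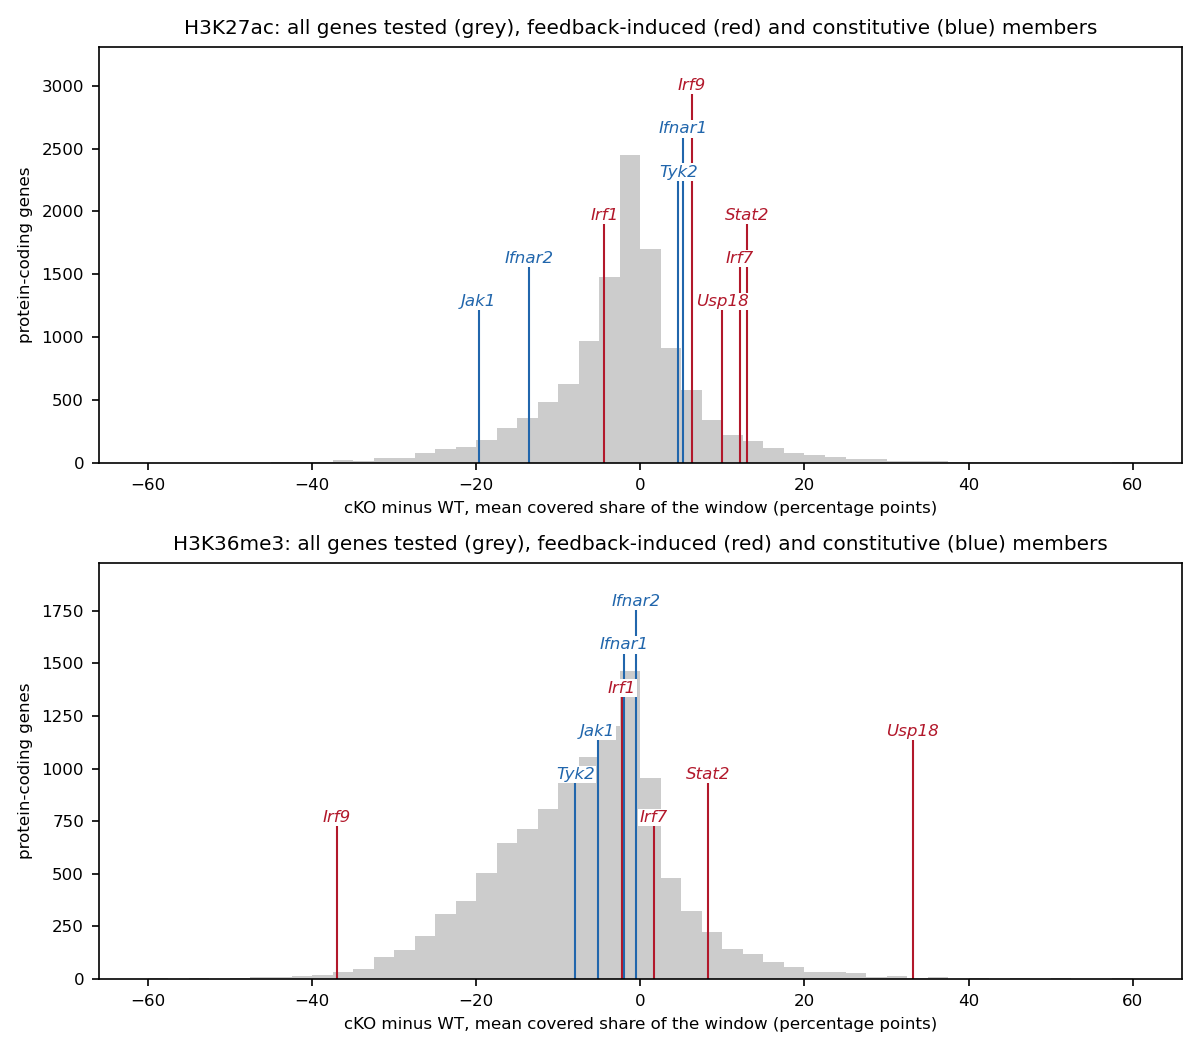
Number of protein-coding genes (grey bars, 2.5 percentage points wide) by the difference in covered share of the window, cKO mean minus WT mean, for H3K27ac (top) and H3K36me3 (bottom), with genes beyond 60 points placed in the end bars. Lines mark the feedback-induced members in red and the constitutive members in blue, with heights chosen for legibility. Usp18 and Irf9 lie in opposite tails for H3K36me3, and Jak1 and Stat2 in opposite tails for H3K27ac.

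H3.3 itself was mapped in cells that were not deleted. All 9 members carried an H3.3-HA region in both replicates, against 44.2% of the 21938 genes, which include genes with no region of any kind, and the median covered share was 15.7% in replicate 1 and 38.4% in replicate 2. Over all genes these medians were 0% and 0.51%. Replicate 2 was above replicate 1 at all 9 members, and at 7497 of the 21938 genes. The share covered in both replicates ranged from 3.80% at Usp18 to 27.3% at Irf7. Usp18 had the lowest H3.3-HA coverage of the members, 6.51% and 10.4%, and was the single member with a start inside an H3.3-HA region in both replicates. Irf7 had the highest mean, 27.4% and 74.7%, with the whole gene body covered in replicate 2. At Stat2 the shared H3.3-HA lay in the 3′ part of the gene, all of it inside H3K36me3 regions of both genotypes and none inside shared H3K27ac regions. At Jak1, 65.2% of the shared H3.3-HA length lay in shared WT H3K27ac regions and 7.76% in shared cKO H3K27ac regions. These shares were 86.6% and 7.25% at Ifnar2, and 10.3% and 0% at Ifnar1. Usp18 went the opposite way, with 11.8% and 44.0%, and at the other members both shares were 0%. Shared H3K27ac regions themselves covered 23.0% of the Jak1 window in WT and 5.31% in cKO. For the Ifnar2 window this was 43.9% and 27.5%. A lost H3K27ac region 91360 to 92514 bp into Jak1 lay wholly inside H3.3-HA regions of both replicates, while the lost regions 46410 and 71238 bp into the gene held no H3.3-HA.

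The other pathway genes, 32 interferon and cytokine receptors, kinases, STAT and IRF factors, SOCS, phosphatase and PIAS regulators, were counted by the same rules. H3.3-HA regions lay in both replicates at 26 of the 32, and replicate 2 was above replicate 1 at 26, much as at the members. For H3K27ac, 28 were tested, of which 5 (17.9%) were higher and 8 (28.6%) lower, against 19.0% and 41.7% of all genes, with a median difference of -0.86 percentage points. For H3K36me3, 28 were tested, of which 5 (17.9%) were higher and 10 (35.7%) lower, against 8.40% and 40.4%, with a median of -7.00 points. The widest H3K27ac difference was at Isg15, the ubiquitin-like modifier that USP18 removes, covered to 20.3% and 9.96% in WT and to 42.0% and 59.9% in cKO. Ptpn6, a phosphatase that dampens receptor signalling, was 15.2 points higher in cKO, and Socs1, a feedback inhibitor of JAK kinases, 13.1 points higher.

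Lower H3K27ac coverage was seen at both chains of the interferon gamma receptor. Ifngr1 went from 60.7% and 46.0% in WT to 34.7% and 35.8% in cKO, and Ifngr2 from 73.0% and 56.0% to 47.7% and 49.8%. Il10ra, the ligand-binding chain of the IL-10 receptor, differed by -22.5 points, Irf2, a factor that competes with IRF1, by -19.4 points, and Cbl, a ubiquitin ligase, by -12.8 points. Lower H3K36me3 coverage of at least 10 points was seen at the kinases Jak2 and Jak3, the factors Irf4 and Stat5a, the phosphatase Ptpn11, and at Pias2, Pias4 and Socs3. Jak2 was covered to 62.7% and 65.2% in WT and to 20.6% and 46.5% in cKO, and Irf4 to 28.7% and 39.9% in WT and to 0% and 6.61% in cKO. Il10rb, the second chain of the IL-10 receptor, differed in the opposite direction, from 77.2% and 85.0% in WT to 90.9% and 93.0% in cKO. The other 4 higher genes were Ifngr2, Il10ra, Irf8 and Isg15, with differences of at most 8.70 points, and these 5 were named after their values were seen. At each of the 8 lower genes named the lowest library was cKO replicate 1, the library that stood apart.

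Genes whose coverage over the 10 libraries was most like that of each feedback-induced member were named by Euclidean distance, in percentage points over 10 values, among genes on other chromosomes. Usp18 was nearest to Phf11d at 15.3 and Kif2c at 16.9, Stat2 to Dok3 at 19.5 and Sf1 at 20.1, and Irf1 to Tmem120a at 14.6 and Apeh at 18.3. Irf7 was nearest to Rpl29 at 20.3 and Rps15 at 27.5, and Irf9 to Arhgap45 at 35.6 and Cln3 at 38.8, so Irf9 had the least close neighbours. Phf11d was covered by H3K36me3 to 27.1% and 34.3% in WT and to 50.7% and 64.2% in cKO, the same order of libraries as Usp18. These values were part of the distance by which Phf11d was chosen, so the likeness is no separate result.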

How the data were processed

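The authors trimmed CUT&RUN reads with cutadapt, aligned them to mm10 with Bowtie2 and called regions with HOMER in histone mode, per library, against IgG. Per the file headers, peaks of 500 bp had to exceed control 4-fold at a Poisson p-value of 1e-04. The deposited columns used were region start and end in bp. Their score was constant, so signal height was unknown, and a region missed in a library can differ little in signal. Coordinates are 1-based.

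Coverage, gained and lost regions (overlap of at least 1 bp) and motifs were computed with Python 3.11.15 and NumPy 2.4.6, and figures with matplotlib 3.10.9. The code was tested on simulated regions. Pathway genes were named when the genotypes did not overlap and differed by at least 10 percentage points, at most 8 per mark, and alike genes were the 2 nearest per feedback-induced member. Members and lists were chosen with earlier results of these data known. Alternatives were other windows, region filters, joined regions, gaps, left-out libraries and a replicate block.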

Additional observations from a re-analysis of the deposited data

How the results depend on the processing

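Results rest on called regions in 2 libraries a group, so precision is limited by that number and by region calling. The share of all genes called under the same setting stands in brackets after each count. For H3K27ac, members higher numbered 5 (27.6%) with equal numbers of regions, 3 (18.7%) with 5 kb on both sides, 3 (6.99%) with a gap of at least 5 points, and 5 to 6 (17.8% to 35.0%) leaving out each library. Members lower numbered 1 (34.6%) with equal numbers, 1 (17.0%) with the gap, and 1 to 3 (44.1% to 65.0%) leaving out each library. Gained regions were found at 3 members (18.2%) with regions of at least 1 kb, 5 (29.2%) with equal numbers and 3 to 6 (28.3% to 45.4%) leaving out each library, and lost regions at 0 (4.80%) around the start and 1 (33.7%) with regions of at least 1 kb. The feedback-induced minus constitutive difference for H3K27ac was 16.5 around the start, 18.3 with regions joined, 16.2 without Irf1 and 10.9 to 15.6 leaving out each library. Irf1, the feedback-induced member that was lower in cKO, was the only member left out, and no value was computed without Jak1. For H3K36me3 the same difference was 14.0 over the gene body, reversed to -0.97 around the start, and was 1.49 to 7.90 leaving out each library. Members higher in H3K36me3 numbered 0 (31.0%) around the start, 2 (8.90%) with regions joined and 1 to 5 (7.50% to 40.8%) leaving out each library, and members lower 1 (18.5%) with the gap and 3 to 7 (41.3% to 86.1%) leaving out each library. Gained H3K36me3 regions were at 0 members around the start (4.29%), with regions of at least 1 kb (4.25%) or joined (6.82%), and at 1 to 2 (13.6% to 32.1%) leaving out each library. Lost ones were at 0 around the start (4.42%), with regions of at least 1 kb (20.4%) or equal numbers (21.1%). Members with H3.3-HA in both replicates numbered 2 (13.3%) around the start. Pathway genes higher in H3K27ac numbered 10 (45.5%) around the start, 8 (27.6%) with equal numbers, 2 (6.99%) with the gap and 4 to 11 (17.8% to 35.0%) leaving out each library, and those lower 1 (14.4%) around the start and 8 to 18 (44.1% to 65.0%) leaving out each library. Pathway genes higher in H3K36me3 numbered 3 (7.31%) with 5 kb on both sides, 2 (31.0%) around the start, 1 (3.67%) with the gap and 4 to 11 (7.50% to 40.8%) leaving out each library, and those lower 0 (23.8%) around the start, 6 (18.5%) with the gap and 10 to 22 (41.3% to 86.1%) leaving out each library. Of single members, the H3K27ac difference changed sign around the start at Jak1 (7.98), Tyk2 (-21.9) and Irf9 (-14.6), and with regions joined at Ifnar1 (-0.17), and that for H3K36me3 at Irf7 with 5 kb on both sides (-2.97) and without cKO replicate 2 (-1.03), at Ifnar2 with regions of at least 1 kb (0.36), with regions joined (0.51) and without cKO replicate 1 (8.82), and at Tyk2 without cKO replicate 1 (6.34). The cause was not tested. Replicate numbers were not shown to pair libraries: deviations of same-numbered libraries correlated at -0.10 for H3K27ac and 0.09 for H3K36me3, across genes. With the replicate block, members higher numbered 5 (21.6%) and lower 2 (44.5%) for H3K27ac, and higher 2 (11.4%) and lower 4 (50.5%) for H3K36me3.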
